A study of Mus musculus with 12 samples.

Results

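The 31 genes described here are the H/ACA small nucleolar RNAs (snoRNAs) and small Cajal body RNAs (scaRNAs) that could be read singly on an Affymetrix Mouse Gene 2.0 ST array in mouse liver. They are the genes whose symbol starts with Snora (26 genes) or Scarna (5 genes) among 22180 genes named alone by at least 1 probe set, a probe set being the group of short probes that the array summarises into 1 value. For a gene with more than 1 such probe set, the probe set with the highest mean over the 12 arrays was taken, so 34 probe sets gave 31 values per array. The rule itself uses symbols and mean brightness, and it was proposed with earlier results of these data known.

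Each group had 3 liver arrays, all from male mice on a C57BL/6 background, 8 to 10 weeks old at the start. The groups were null mice on the ethanol diet, null mice on the control diet, wild-type mice on the ethanol diet and wild-type mice on the control diet. Null mice lack Pparβ/δ (gene symbol Ppard), a nuclear receptor for fatty acids, in the labels' term Pparβ/δ-/-, and the wild-type mice are written Pparβ/δ+/+. After 1 week of liquid control diet, all mice had 16 weeks of liquid diet, and the ethanol diet held 4% (v/v) ethanol. The feeding study had 10 mice per group, and the labels do not say whether each array is a separate mouse, so the p-values given measure only how these samples spread, which may be technical. The comparisons ask how genotype and ethanol diet shift these RNAs in liver. Values are log2 of the deposited, between-array normalised intensity. A probe set's level is set only against the same probe set on other arrays, since probe sets differ in brightness for the same amount of RNA.

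H/ACA snoRNAs fold into hairpins that base-pair with ribosomal RNA and direct the conversion of chosen uridines to pseudouridine, by a particle of the synthase dyskerin (Dkc1) with Nhp2, Nop10 and Gar1. ScaRNAs carry a signal that holds them in Cajal bodies, where they guide the modification of the spliceosome's small nuclear RNAs. In mammals most of these RNAs are cut from introns of host genes, many of which encode ribosomal proteins, translation factors or spliced transcripts with no known protein. In liver they belong to the machinery of ribosome production that every nucleated cell uses.

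By RefSeq gene spans (GRCm38.p6), 30 of the 31 lay inside a host gene, 27 different hosts in all. Snhg12 holds Snora16a, Snora44 and Snora61. Snhg3 holds Snora73a and Snora73b, and Kansl2 holds Snora34 and Snora2b. The start regions of these 3 hosts are shown because they are the ones shared by several of the RNAs. Each is written on the gene's strand, 60 bases before to 20 after the annotated start, from RefSeq's promoter sequences of GRCm38.p6. Capitals mark a pyrimidine run, a C followed by at least 4 bases that are each C or T, that begins within 20 bases of the start on the gene's strand; runs do not overlap each other.
Snhg12 (chr4:132308618-132308697, plus strand): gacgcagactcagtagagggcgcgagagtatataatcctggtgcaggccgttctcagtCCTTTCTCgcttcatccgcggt
Snhg3 (chr4:132353667-132353746, minus strand): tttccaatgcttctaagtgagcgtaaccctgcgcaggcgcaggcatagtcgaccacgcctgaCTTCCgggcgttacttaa
Kansl2 (chr15:98534250-98534329, minus strand): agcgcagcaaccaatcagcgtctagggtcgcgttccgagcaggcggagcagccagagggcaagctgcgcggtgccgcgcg
Snhg12 and Snhg3 hold such a run and Kansl2 has none of these letters in this window. Over the 24 listed start regions of 22 host genes, 13 hold a run (54.17%), against 15594 of 32851 start regions of all genes (47.47%), so the run is about as common near any gene's start.

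The 3 wild-type control arrays stood apart from the other 9 for these RNAs. The median over the 31 was 9.08, 8.78 and 8.50 in null ethanol, 8.65, 8.83 and 8.81 in null control, 8.77, 8.83 and 8.83 in wild-type ethanol, and 7.71, 7.80 and 7.51 in wild-type control livers. The wild-type control mean was the lowest of the 4 group means for 28 of 31. All 3 wild-type control arrays lay below the other 9 for 16 of 31 (51.6%), against 444 of 14031 tested genes (3.16%), and all 3 lay above the other 9 for 0 of 31, against 2.29% of tested genes. Among these 16 were Scarna6, Scarna17, Snora73a, Snora73b, Snora74a, Snora33, Snora23 and Snora75.

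**Figure D1:**
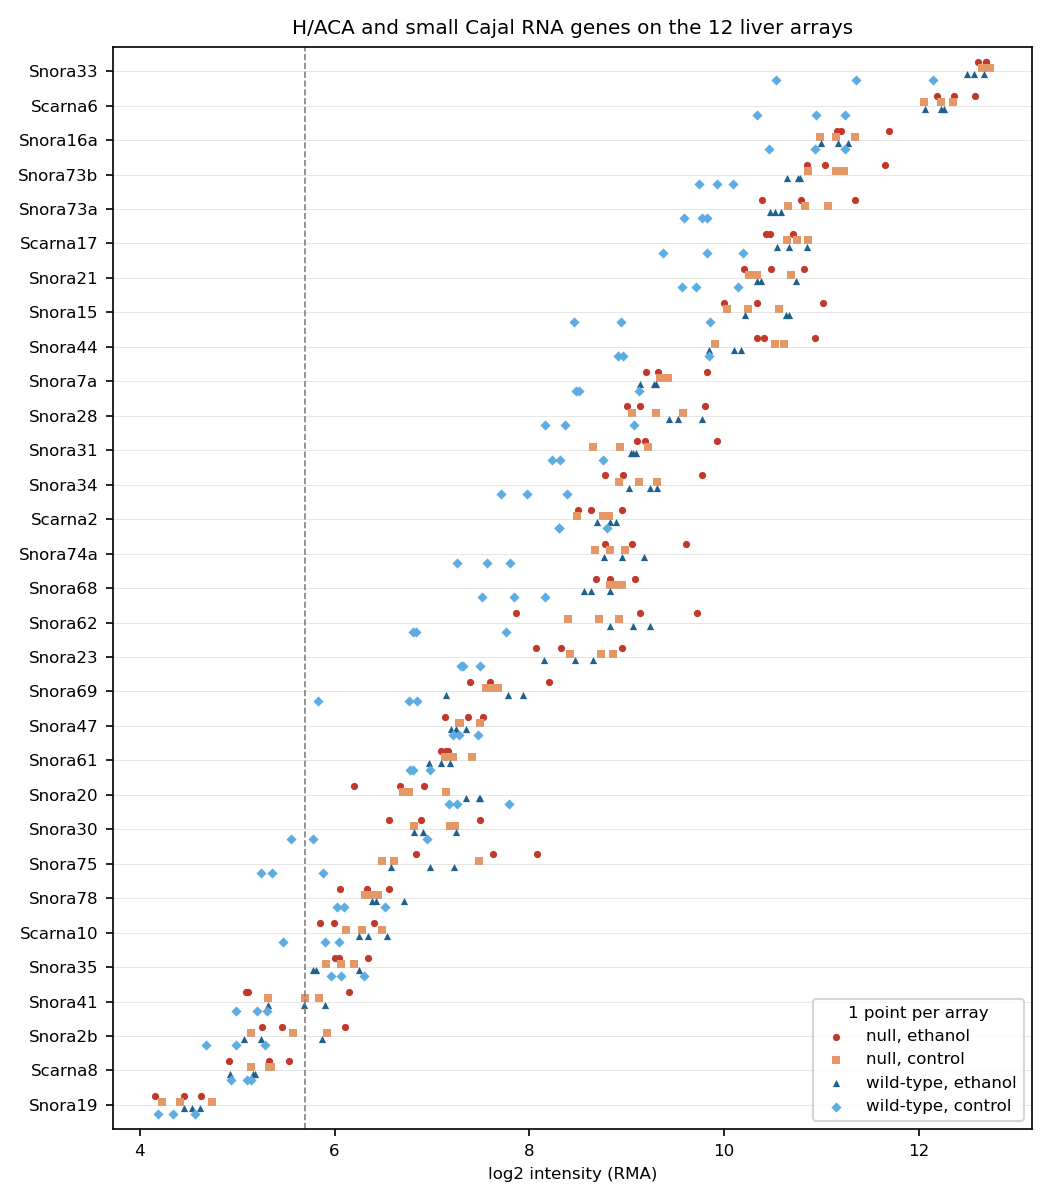
Log2 intensity (horizontal axis) of each of the 31 RNAs (rows, ordered by mean), with 1 point per array, the 4 groups in their own colour and marker, and a dashed line at log2 5.7. In most rows the wild-type control points lie left of the others, their medians over the 31 being 7.71, 7.80 and 7.51, and 4 RNAs have a mean left of the dashed line.

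Single arrays also moved many of these RNAs together within a group. Null ethanol array 1 was the highest of its group for 25 of 31 and the highest of all 12 arrays for 22, while null ethanol array 3 was the lowest of its group for 18. Wild-type control array 2 was the highest of its group for 23 of 31, and array 1 was the lowest for 15. Counts of this kind, and that of lowest group means, are not given for all tested genes. The medians over all genes were 6.13, 6.16 and 6.15 in null ethanol and 6.14, 6.14 and 6.14 in wild-type control livers. The median SD between replicates of these RNAs was 0.33 in null ethanol, 0.20 in null control, 0.15 in wild-type ethanol and 0.31 in wild-type control livers, against 0.12, 0.12, 0.10 and 0.14 over the tested genes.

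Few of the 31 were dim. Averaged over the 12 arrays, 4 of 31 (12.9%, exact Clopper-Pearson 95% interval 3.63 to 29.8%, treating the RNAs as independent) lay below log2 5.7, close to the 40th percentile that served as the detection filter, against 40.9% of all 22180 genes. By group mean the share was 12.9% in null ethanol, 12.9% in null control, 12.9% in wild-type ethanol and 16.1% in wild-type control livers. By array it was 2, 4 and 4 RNAs in null ethanol, 3, 4 and 3 in null control, 4, 3 and 3 in wild-type ethanol and 6, 5 and 5 in wild-type control. The extra dim RNAs of the wild-type control arrays included Snora75, at 5.36 on array 1 and 5.25 on array 2. Its means were 7.51 in null ethanol, 6.86 in null control and 6.93 in wild-type ethanol livers, well above the threshold. Scarna10 (5.47 on array 1) and Snora30 (5.55 on array 3) lay nearer to it.

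Just above 5.7 were Snora35 (mean 6.06), Scarna10 (6.14) and Snora78 (6.35), and just below were Snora41 (5.47), Snora2b (5.38) and Scarna8 (5.17). Snora19 was the dimmest at 4.44. Snora35 sits in the serotonin receptor gene Htr2c and is known from brain, and its values of 5.78 to 6.34 over 12 arrays showed no group apart. Scarna8, whose human counterpart guides modification of the U2 small nuclear RNA, and Snora19 did not pass the filter, so 29 of the 31 were tested.

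The scaRNAs differed among themselves in how far the wild-type control arrays lay below the rest. Scarna6, whose human counterpart combines the box C/D and H/ACA types in 1 RNA, stood at 12.57, 12.19 and 12.35 in null ethanol, 12.05, 12.35 and 12.23 in null control, 12.06, 12.26 and 12.22 in wild-type ethanol, and 10.33, 11.24 and 10.95 in wild-type control livers. Nothing overlapped: the highest wild-type control array lay below the lowest of the other 9. Scarna17, a scaRNA whose human counterpart is of the box C/D type, read 10.71, 10.43 and 10.47 in null ethanol, 10.75, 10.86 and 10.64 in null control, 10.66, 10.85 and 10.54 in wild-type ethanol, and 9.83, 10.19 and 9.37 in wild-type control livers. Here too the 3 wild-type control arrays were the lowest of the 12. Scarna2, also of the box C/D type in human and the only RNA of the 31 with no host in the annotation, read 8.95, 8.63 and 8.50 in null ethanol, 8.49, 8.76 and 8.81 in null control, 8.89, 8.83 and 8.70 in wild-type ethanol, and 8.30, 8.80 and 8.31 in wild-type control livers. Its groups overlapped. Scarna10, like Scarna6 a composite RNA in human, averaged 6.08 ± 0.28 in null ethanol, 6.30 ± 0.18 in null control, 6.38 ± 0.14 in wild-type ethanol and 5.81 ± 0.30 in wild-type control livers (SD, n = 3 each). Scarna8 averaged 5.26, 5.27, 5.09 and 5.06 in the same 4 groups, within 0.21 of each other and below the filter.

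Among the snoRNAs of non-coding hosts, Snora73a and Snora73b, known as U17 in human and needed for cleavage of the ribosomal RNA precursor rather than for pseudouridylation, moved alike. Snora73b read 11.65, 11.03 and 10.85 in null ethanol, 10.86, 11.23 and 11.15 in null control, 10.76, 10.78 and 10.65 in wild-type ethanol, and 9.75, 10.10 and 9.93 in wild-type control livers. Snora73a read 11.35, 10.79 and 10.38 in null ethanol, 10.66, 11.07 and 10.83 in null control, 10.52, 10.58 and 10.47 in wild-type ethanol, and 9.58, 9.82 and 9.77 in wild-type control livers. The wild-type control arrays were lowest for both, which are near-identical in sequence, so their probe sets may share signal. Snora74a, hosted by Snhg4, read 9.60, 9.05 and 8.78 in null ethanol, 8.67, 8.98 and 8.83 in null control, 8.77, 9.18 and 8.95 in wild-type ethanol, and 7.26, 7.80 and 7.57 in wild-type control livers. Again no wild-type control array reached any other array.

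The RNAs of Snhg12 were less alike. Snora44 read 10.93, 10.41 and 10.34 in null ethanol, 9.91, 10.52 and 10.62 in null control, 10.10, 10.18 and 9.84 in wild-type ethanol, and 8.96, 9.84 and 8.91 in wild-type control livers. Snora61 read 7.15, 7.10 and 7.17 in null ethanol, 7.42, 7.21 and 7.13 in null control, 7.19, 7.10 and 6.97 in wild-type ethanol, and 6.81, 6.98 and 6.77 in wild-type control livers. Snora16a read 11.69, 11.20 and 11.16 in null ethanol, 11.14, 10.99 and 11.34 in null control, 11.27, 11.17 and 11.00 in wild-type ethanol, and 10.93, 10.46 and 11.24 in wild-type control livers. Wild-type control was the lowest group mean for all 3, but single wild-type control arrays overlapped the other groups for Snora16a and Snora61. For Snora44, wild-type control array 2 was level with wild-type ethanol array 3, both at 9.84.

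Of the snoRNAs in ribosomal protein genes, Snora33 (host Rps12) had the steadiest readings outside the wild-type control group, at 12.69, 12.61 and 12.69 in null ethanol, 12.64, 12.70 and 12.73 in null control, 12.67, 12.57 and 12.49 in wild-type ethanol, and 10.53, 12.15 and 11.36 in wild-type control livers. Its 3 wild-type control arrays were the lowest and also spread most, with an SD of 0.81 against 0.04 to 0.09 in the other groups. Snora62 (host Rpsa) read 9.72, 9.14 and 7.86 in null ethanol, 8.39, 8.92 and 8.72 in null control, 9.06, 9.24 and 8.83 in wild-type ethanol, and 6.83, 7.77 and 6.81 in wild-type control livers. Null ethanol array 3 was nearly as low as wild-type control array 2 for this RNA. Snora69 (host Rpl39), Snora7a (host Rpl32) and Snora21 (host Rpl23) also had their lowest group mean in wild-type control livers, at 6.48, 8.70 and 9.81.

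Hosts that encode other proteins gave the same picture with some exceptions. Snora23, in the nuclear import gene Ipo7, read 8.95, 8.07 and 8.32 in null ethanol, 8.86, 8.73 and 8.42 in null control, 8.15, 8.65 and 8.47 in wild-type ethanol, and 7.32, 7.30 and 7.49 in wild-type control livers. Snora75, in the gene of nucleolin (Ncl), a major nucleolar protein, read 8.08, 6.83 and 7.63 in null ethanol, 6.61, 6.49 and 7.48 in null control, 6.57, 6.98 and 7.23 in wild-type ethanol, and 5.36, 5.25 and 5.89 in wild-type control livers. Both had all 3 wild-type control arrays lowest. Snora15, in the chaperonin subunit gene Cct6a, averaged 10.45 ± 0.52 in null ethanol, 10.28 ± 0.27 in null control, 10.50 ± 0.25 in wild-type ethanol and 9.08 ± 0.71 in wild-type control livers (SD, n = 3 each). Snora34, in Kansl2, averaged 9.17 ± 0.53, 9.12 ± 0.20, 9.19 ± 0.15 and 8.02 ± 0.34 in the same groups.

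Snora68 read 9.08, 8.83 and 8.68 in null ethanol, 8.89, 8.83 and 8.95 in null control, 8.56, 8.63 and 8.83 in wild-type ethanol, and 7.85, 8.16 and 7.51 in wild-type control livers. Its 3 wild-type control arrays were the lowest of the 12.

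The exceptions were Snora20, Snora47 and Snora35, for which wild-type control was not the lowest group mean. Snora20, in the chaperonin subunit gene Tcp1, read 6.67, 6.20 and 6.92 in null ethanol, 6.71, 6.77 and 7.14 in null control, 7.48, 7.49 and 7.35 in wild-type ethanol, and 7.79, 7.18 and 7.25 in wild-type control livers. All 6 null arrays lay below all 6 wild-type arrays. Snora47, placed in Zbed3, kept to 7.13 to 7.52 on all 12 arrays.

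In null against wild-type livers on the control diet, H/ACA snoRNAs and scaRNAs were higher in null livers. Limma, with Benjamini-Hochberg adjustment over 14031 genes, called 16 of the 29 tested RNAs higher and 0 lower at an adjusted p under 0.05, against 3.21% of tested genes called higher and 1.89% called lower. The median difference over the 31 was 0.78, against 0.01 over the tested genes, and 29 were above 0. Over the 31, the differences ran between -0.54 and 1.54. The 3 null arrays lay above the 3 wild-type arrays for 20 of 31, against 14.6% of tested genes, and below them for 1, against 10%. The 20 include Scarna8, which was below the filter and not tested.

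The smallest adjusted p belonged to Scarna6, which rose by 1.37 ± 0.18 (SE), or 2.59-fold (limma adjusted p = 0.0013). Snora68 rose by 1.05 ± 0.15 (adjusted p = 0.00204), and Snora74a by 1.28 ± 0.19 (adjusted p = 0.00284). Snora73b rose by 1.16 ± 0.17 and Snora73a by 1.13 ± 0.19 (adjusted p = 0.00284 and 0.0054), Snora23 by 1.30 ± 0.20 (adjusted p = 0.00301) and Scarna17 by 0.96 ± 0.17 (adjusted p = 0.00736). These 7 passed the limma test whichever single array was left out. For each of the 7, the highest wild-type control array lay below the lowest null control array, as for 14.6% of tested genes. The 7 were picked by limma on these same arrays, so this adds no separate support.

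The other 9 calls were closer to the threshold. Snora62 differed most in size, 1.54 ± 0.37 or 2.91-fold (limma adjusted p = 0.034), with Snora75 at 1.36 ± 0.31 (adjusted p = 0.0285) and Snora33 at 1.34 ± 0.27 (adjusted p = 0.0157). Snora15 (1.19 ± 0.31), Snora69 (1.14 ± 0.27), Snora44 (1.11 ± 0.25) and Snora34 (1.09 ± 0.23) had adjusted p = 0.0468, 0.0333, 0.0247 and 0.0184. Snora7a rose by 0.69 ± 0.18 (adjusted p = 0.0443) and Snora61, the smallest rise, by 0.40 ± 0.10 (adjusted p = 0.0377).

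Of the 13 tested RNAs that limma did not call, several lay close by: Snora21 at 0.62 (adjusted p = 0.0699), Snora28 at 0.78 (0.0761) and Snora30 at 0.98 (0.083). Scarna10 differed by 0.49 (limma adjusted p = 0.107). Snora16a differed by 0.28 with a 95% interval of -0.12 to 0.68, and Scarna2 by 0.22 with an interval of -0.11 to 0.55, so for these 2 the data allow no difference as well as a moderate rise. The intervals of Snora47 (-0.22 to 0.28) and Snora35 (-0.37 to 0.26) exclude a rise of 1 log2 unit.

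The number of calls depended on single arrays and on the genes tested. It was 7 without null control array 2, 8 without wild-type control array 1, 9 without null control array 3 or wild-type control array 3, and 10 with no filter on dim genes or when only the 2 groups compared were fitted.

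**Figure D2:**
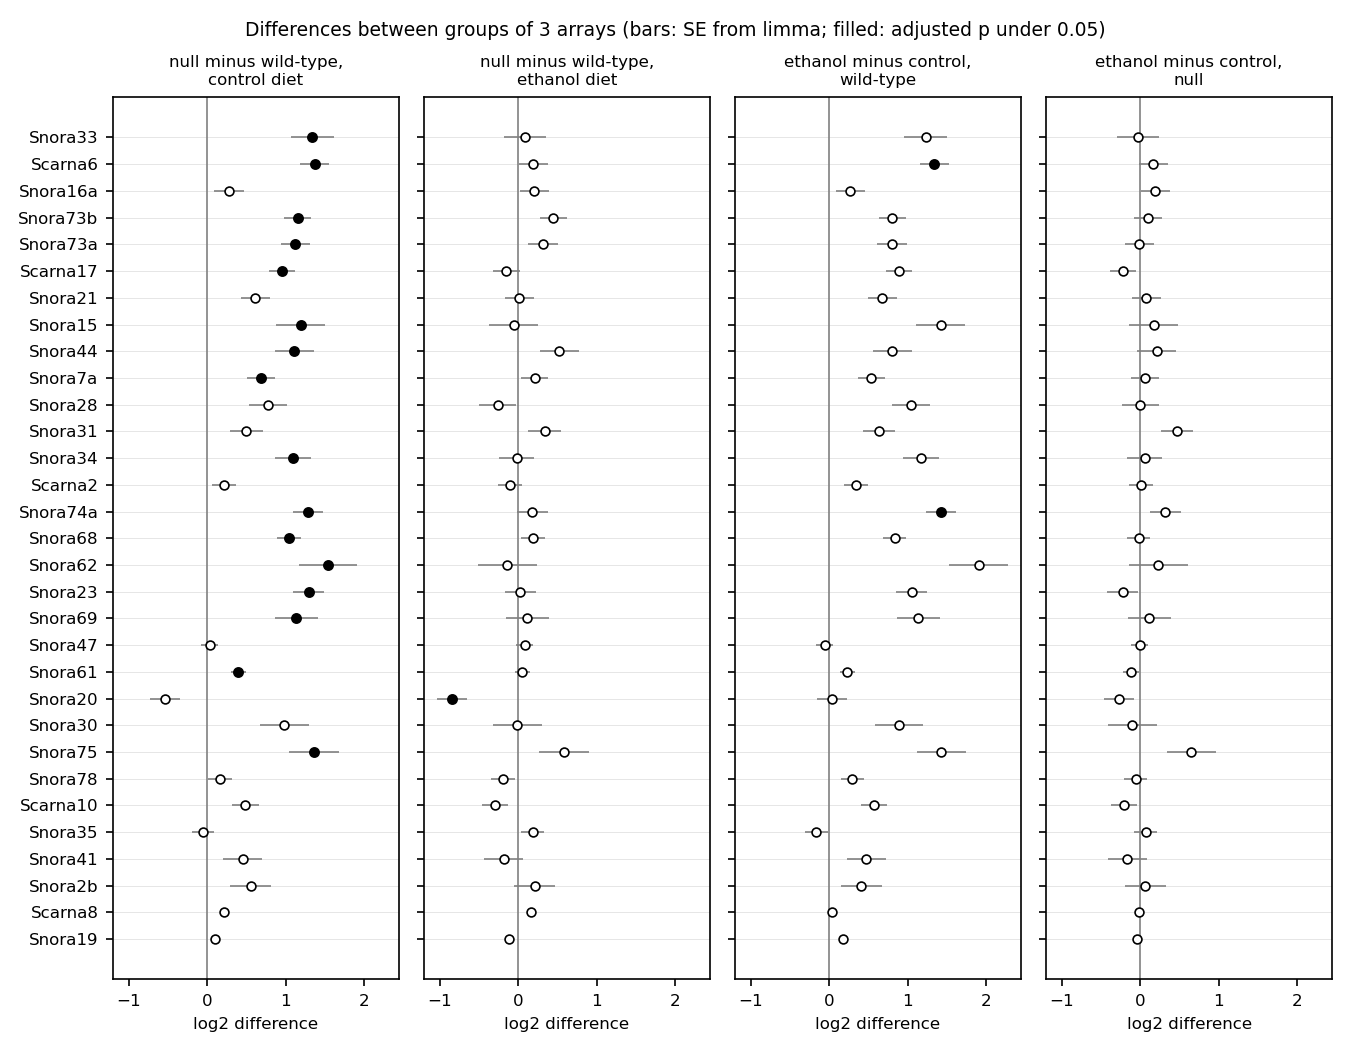
Log2 difference (points) with the SE from limma (bars) for the 31 RNAs in 4 comparisons, null minus wild-type on each diet and ethanol minus control in each genotype; filled points passed an adjusted p under 0.05 and the lowest 2 rows, Scarna8 and Snora19, were not tested. Points in the comparisons with wild-type control livers centre on 0.78 and 0.80, and those of the other comparisons on 0.08 and 0.01.

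On the ethanol diet, the differences between null and wild-type livers centred near 0, and a single RNA, Snora20, passed the test. Limma called 0 of 29 higher and 1 lower, against 0.456% of tested genes called higher and 1.33% called lower. The median difference over the 31 was 0.08, with 19 above 0, and the values lay between -0.84 and 0.58. Null arrays were all above wild-type arrays for 3 RNAs, against 9.74% of tested genes, and all below for 1, against 14.4%.

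The RNA that passed was Snora20, which was lower by 0.84 ± 0.19 in null livers, 1.8-fold (limma adjusted p = 0.0433, n = 3 arrays a group). On the control diet its difference was -0.54 ± 0.19 (adjusted p = 0.121). Its host Tcp1 differed by 0.14 on the ethanol diet (adjusted p = 0.472). Snora20 and Tcp1 lie on chromosome 17, as does Ppard, the deleted gene, and the part of this location was not tested. Snora78, also on chromosome 17, differed by 0.16 on the control diet (limma adjusted p = 0.567) and by -0.19 on the ethanol diet (0.568). Snora73b differed by 0.45 (limma adjusted p = 0.225), Snora44 by 0.52 (0.33), Snora75 by 0.58 (0.388) and Scarna10 by -0.30 (0.417). The call of Snora20 was lost without null ethanol array 1 or 2, without null control array 2, or without any 1 of the wild-type ethanol arrays, and also with no filter or after a further quantile normalisation.

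In wild-type livers, the ethanol diet went with higher H/ACA snoRNAs and scaRNAs, but few passed the test. Limma called 2 of 29 higher and 0 lower, against 0.0855% of tested genes called higher and 0.00713% called lower. At an unadjusted p under 0.05 there were 22, against 14.5% of tested genes. The median difference over the 31 was 0.80, against -0.01 over the tested genes, and 29 of 31 were above 0. The 3 ethanol arrays lay above the 3 control arrays for 20 of 31, against 10.8% of tested genes, and below them for 0, against 8.61%. This comparison and the null against wild-type comparison on the control diet share the same 3 wild-type control arrays, so their values are not independent.

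Snora74a rose by 1.42 ± 0.19, or 2.68-fold, and Scarna6 by 1.34 ± 0.18, or 2.53-fold (limma adjusted p = 0.0231 each). The genotype difference on the control diet was 1.28 for Snora74a and 1.37 for Scarna6. Larger differences with more scatter missed the threshold: Snora62 at 1.91 ± 0.37 (adjusted p = 0.0622), Snora75 at 1.43 ± 0.31 and Snora15 at 1.42 ± 0.31 (both 0.0945). Snora68 (0.83 ± 0.15, adjusted p = 0.0539), Snora23 (1.05 ± 0.20) and Scarna17 (0.89 ± 0.17, both 0.0547) lay just outside it. Snora34 differed by 1.17 ± 0.23 (adjusted p = 0.0612). Snora20 differed by 0.03 and Snora47 by -0.06, with 95% intervals of -0.38 to 0.45 and -0.31 to 0.18.

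The number of calls in wild-type livers ran between 0 and 18 as single arrays were left out. It was 18 without wild-type control array 2, 8 without null ethanol array 1, 3 without null ethanol array 3, 1 without wild-type control array 1, and 0 without wild-type control array 3 or any 1 of the wild-type ethanol arrays, while the median difference kept to 0.64 to 0.85.

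In null livers the ethanol diet made no call among these RNAs. Limma called 0 of 29 in either direction, against 0% of tested genes called higher and 0.00713% called lower, and 1 of 29 had an unadjusted p under 0.05, against 12.2% of tested genes. The median difference over the 31 was 0.01, with 17 above 0, and the values lay between -0.28 and 0.65. Ethanol and control arrays overlapped for each of the 31, while 5.59% of tested genes had all ethanol arrays above and 13% all below. The RNA with the smallest p was Snora31, in Tpt1, the gene of the translationally controlled tumour protein, at 0.47 ± 0.21 (limma adjusted p = 0.392). Snora75 differed by 0.65 (0.425), Snora74a by 0.32 (0.509) and Snora20 by -0.28 (0.568). The 95% interval of Snora74a, -0.10 to 0.74, lies below the 1.42 seen in wild-type livers.

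The test of the difference itself, the ethanol effect in null minus that in wild-type livers, called 0 of 29. Limma called 0% of tested genes higher and 0.0143% lower here. At an unadjusted p under 0.05 there were 17 of 29, all below 0, against 15% of tested genes in either direction. The median over the 31 was -0.71, against -0.04 over the tested genes, and 29 of 31 were below 0. The smallest adjusted p was 0.17, shared by Scarna17 (-1.11 ± 0.24), Snora23 (-1.28 ± 0.28) and Scarna6 (-1.18 ± 0.26). Snora74a (-1.10) and Snora68 (-0.86) had an adjusted p of 0.176, and Snora34 (-1.11) had 0.201. So a difference between the genotypes in the ethanol effect was not shown for any single RNA. Without wild-type control array 2 there were 4 calls, and without null ethanol array 1 there was 1.

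Few host gene transcripts were called, at about the share of all tested genes. Of the 27 hosts, 23 were measured by a probe set of their own and 21 tested. In null against wild-type livers on the control diet limma called 0 hosts higher and 1 lower, against 3.21% and 1.89% of all tested genes, and the median host difference was 0.05, between -0.61 and 0.41. In wild-type livers the ethanol diet gave 0 calls and a median of 0.05, between -0.33 and 0.28. The 1 host called was Cct6a, which fell by 0.61 ± 0.11 in null livers on the control diet (limma adjusted p = 0.00724), while its Snora15 rose by 1.19.

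Snhg3 differed by 0.41 on that diet (limma adjusted p = 0.259), beside rises of 1.13 and 1.16 for its Snora73a and Snora73b. Snhg12 differed by 0.20 (0.521), beside 1.11 for Snora44, 0.40 for Snora61 and 0.28 for Snora16a. Kansl2 differed by 0.14 (0.623), beside 1.09 for Snora34 and 0.56 for Snora2b. Behind the start regions printed above, the RNAs of Snhg3 had close values and those of Snhg12 and Kansl2 had less alike ones, Snora2b being below log2 5.7 on average; differences between RNAs of the same host were not tested. Rps12 (0.29), Rpsa (0.31) and Rpl32 (0.29) were a little above 0, none called.

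**Figure D3:**
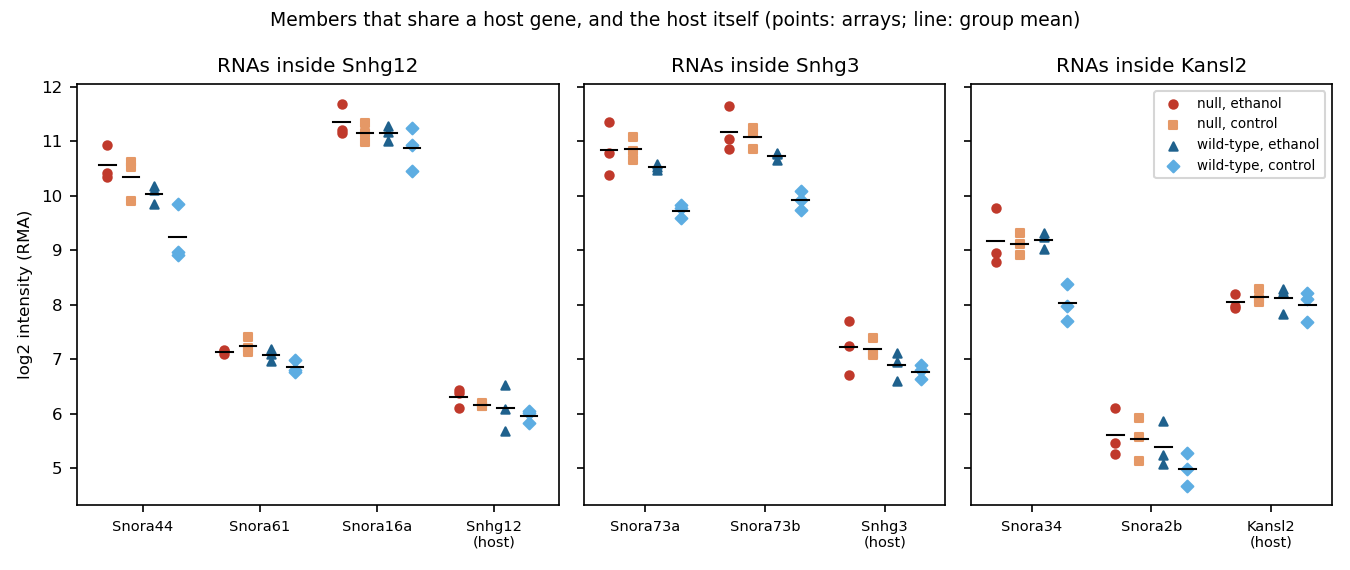
Log2 intensity on each array of the RNAs that share the hosts Snhg12, Snhg3 and Kansl2, with the host transcript beside them and the groups in the order null ethanol, null control, wild-type ethanol and wild-type control. Snora73a, Snora73b and Snora34 are low on the 3 wild-type control arrays. Snora44 is low on arrays 1 and 3 of that group, and its array 2 is level with wild-type ethanol array 3. Snhg12, Snhg3 and Kansl2 differ by 0.20, 0.41 and 0.14 between null and wild-type livers on the control diet.

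No protein gene of the H/ACA particle passed the test. Limma called 0 of the 4 core genes (Dkc1, Nhp2, Nop10, Gar1) and 0 of the 4 assembly and Cajal body genes (Naf1 and Shq1, which load the particle, Wrap53, which brings scaRNAs to Cajal bodies, and Coil, the body's scaffold) in any of the 5 comparisons. The smallest adjusted p was that of Nop10, 0.30 higher in null livers on the control diet (0.128). Terc, the telomerase RNA, is a longer RNA of H/ACA type held by the same proteins. It averaged 11.49 in null ethanol, 11.26 in null control, 11.50 in wild-type ethanol and 11.29 in wild-type control livers, a difference of -0.02 ± 0.14 between null and wild-type on the control diet (limma adjusted p = 0.945). None of the 12 other pseudouridine synthase genes was called in any comparison.

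Of 20 tested genes of RNA polymerase I and ribosome biogenesis, limma called 1 higher and 1 lower in null livers on the control diet, and 0 in the other comparisons. Taf1d, a subunit of the RNA polymerase I factor whose human introns hold several snoRNAs, rose by 1.14 (adjusted p = 0.0102). Npm1, an abundant nucleolar protein, fell by 0.43 (adjusted p = 0.0246). Of 13 tested genes named as snoRNA hosts (Snhg and Gas5), limma called 1 higher and 0 lower on that diet, with a median of -0.03 over the 15 on the array. It was Snhg17, host of no RNA in the 31, which rose by 0.92 (adjusted p = 0.0334).

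Box C/D snoRNAs had median differences much like those of the H/ACA snoRNAs. The box C/D RNAs, which guide ribose methylation instead, numbered 47, and limma called 25 of 41 tested higher in null livers on the control diet, 7 higher with ethanol in wild-type livers, 0 with ethanol in null livers and 2 lower in the test of the difference between ethanol effects. Over all tested genes, 3.21% were called higher, 0.0855% higher, 0% higher and 0.0143% lower in the same order. Their median differences in these comparisons were 0.79, 0.92, 0.04 and -0.84, against 0.78, 0.80, 0.01 and -0.71 for the 31. Between genotypes on the ethanol diet limma called 1 higher in null livers and 0 lower, against 0.456% and 1.33% of tested genes. The largest box C/D differences between genotypes were 4.97 on the control and 3.17 on the ethanol diet, against 1.54 and 0.58 for the 31. By array, their median ran from 7.62 to 8.15 in null ethanol, 7.44 to 7.95 in null control, 7.44 to 7.85 in wild-type ethanol and 6.63 to 7.21 in wild-type control livers, with no overlap of the last with the rest.

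Among 10 spliceosomal and other small RNAs, limma called 4 of 9 tested higher and 0 lower in null livers on the control diet, against 3.21% and 1.89% of all tested genes. Of the 10, 9 were above 0, with a median of 0.62, and the median was 0.64 with ethanol in wild-type livers (0 called). The 4 were Rnu3a, the U3 box C/D snoRNA, at 1.66 (limma adjusted p = 0.00731), Rpph1, the RNA of ribonuclease P, at 1.31 (0.0084), Rny1, a Y RNA, at 1.31 (0.0259), and the vault RNA Vaultrc5 at 1.18 (0.00675). Not called were Rny3 at 0.98 (0.135), Rnu12 at 0.27 (0.164), Rnu11 at 0.20 (0.407), Rn7sk, an RNA that holds back a transcription elongation factor, at 0.13 (0.373), and Terc. Outside the lists, n-R5s136, a 5S ribosomal RNA gene picked out for its value, differed by 1.95 (0.00204).

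MicroRNA genes, which encode the precursors of still shorter RNAs, had median differences near 0, but most were dim. On each array 377 to 390 of the 483 lay below log2 5.7, with array medians of 4.28 to 4.47. A median difference over such dim probe sets says little about shifts in these RNAs. Of 111 tested, limma called 0 higher and 2 lower in null livers on the control diet, and the median over 483 on the array was 0.00445. With ethanol in wild-type livers 0 were called and the median was 0.02. The labels name a silica column kit (RNeasy mini) for extraction, and such kits retain the shortest RNAs incompletely. RNA recovery was not measured here, and the part of the differences in box C/D snoRNAs and other small RNAs in the results for the 31 was not tested.

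**Figure D4:**
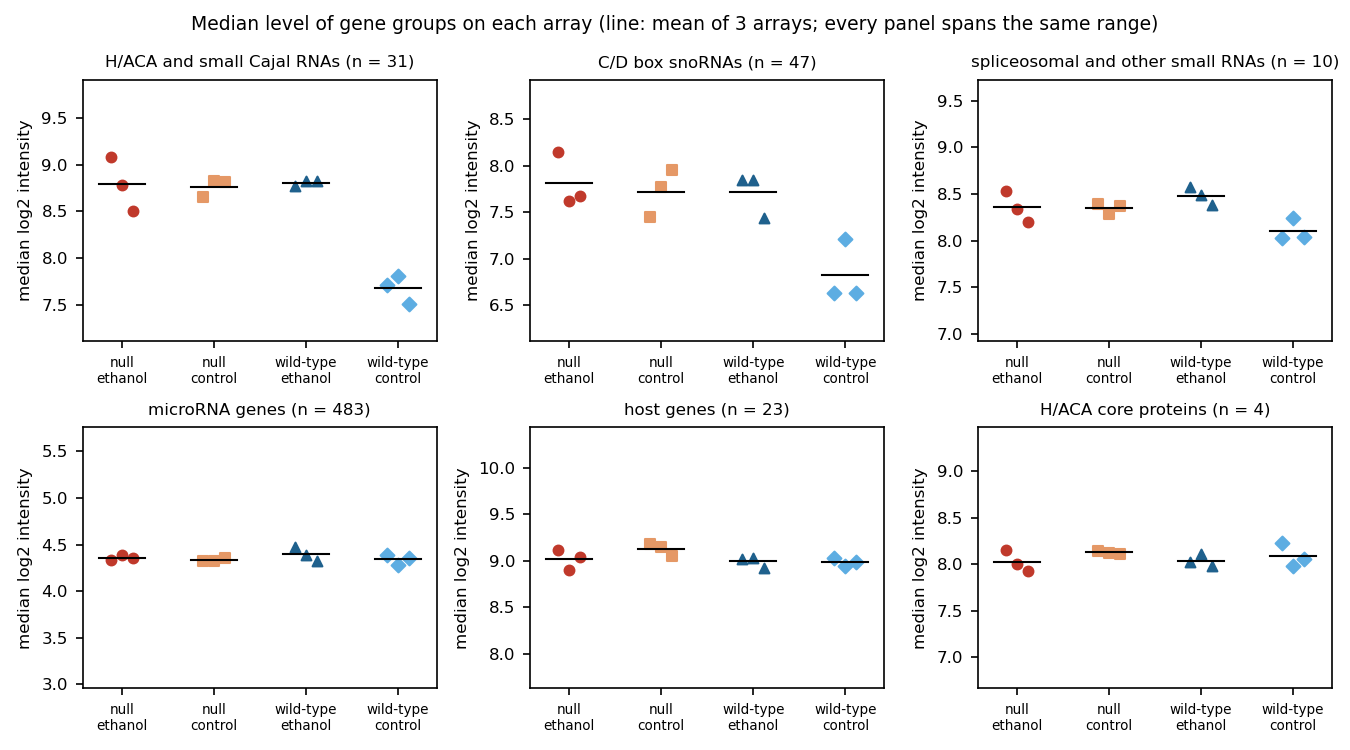
Median log2 intensity per array (points, with a line at the mean of 3 arrays) of 6 gene classes, every panel spanning the same range and with the groups in the order null ethanol, null control, wild-type ethanol and wild-type control. The H/ACA snoRNAs and scaRNAs and the box C/D snoRNAs are lowest on the 3 wild-type control arrays (7.51 to 7.80 and 6.63 to 7.21), while the host genes (8.95 to 9.03 there) are at the level of the other groups.

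The arrays read as liver: 8 hepatocyte markers had medians between 13.38 and 13.56 on the 12 arrays, with Alb between 13.87 and 14.05, and limma called 0 of the 8 between genotypes on the control diet or with ethanol in wild-type livers. Markers of other liver cells differed between genotypes in part. Of 10 markers of Kupffer cells and other macrophages, limma called 5 lower in null livers on the control diet (Adgre1, Cd5l, Marco, Vsig4 and C1qa, -0.47 to -1.02), 1 lower on the ethanol diet (Cd5l, -0.91) and 0 with ethanol in wild-type livers. Their summed level ran from 11.92 to 12.45 in null ethanol, 11.54 to 12.03 in null control, 12.58 to 12.95 in wild-type ethanol and 12.24 to 12.82 in wild-type control livers, on the log2 scale. Of 6 stellate cell markers 0 were called. All 6 were above 0 in null livers on the control diet (median 0.24) and below 0 in the interaction (median -0.27). Those were the signs seen for most of the 31. With ethanol, all 6 were above 0 in wild-type livers (median 0.06) and below 0 in null livers (median -0.20). The 31 had medians of 0.80 and 0.01 in these 2 comparisons, with 29 and 17 of them above 0. The summed level of the stellate markers ran from 10.53 to 10.63 in null ethanol and 10.64 to 10.93 in null control livers. It ran from 10.50 to 10.71 in wild-type ethanol and 10.32 to 10.75 in wild-type control livers. Of 6 sinusoidal endothelial markers 0 were called, with 5 below 0 in null livers on the control diet (median -0.26) and 6 on the ethanol diet (median -0.33). Limma called 0 markers of cholangiocytes and 0 of lymphocytes, and neutrophil markers were dim, with medians between 3.68 and 4.73. The part of these cells' content in the differences of the 31 was not tested, and in bulk liver fewer cells of a type and less RNA per cell cannot be told apart. Ppard read 7.96, 7.84, 7.86 and 7.78 in the 4 groups, so its probe set gave no check of the genotype labels. No label or header names an extraction, labelling or scan batch, so batch and group cannot be told apart.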

How the data were processed

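The authors deposited linear intensity values, 1 for each probe set on each array, which are RMA output per the submitters' processing notes. The version and settings and the probe sets' genome build are not stated in the labels or headers used here. RNA was 100 ng of total RNA per array, per the labels' protocols. The intensities spanned 1.816 to 20156, so log2 was taken here; array medians were 5.55 to 5.62, and array pairs correlated at 0.985 to 0.994 with no identical columns. Of 41345 probe sets, 23521 named exactly 1 gene, 1814 several and 16010 none. With 1 probe set per gene (highest mean), 22180 genes remained. A gene was tested if it lay above its array's 40th percentile (5.61 to 5.71) on at least 3 arrays, which left 14031.

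A linear model with 4 group means was fitted across the 12 arrays by limma 3.58.1 in R 4.3.3 (8 residual and 4.95 prior degrees of freedom). Its 5 contrasts were null against wild-type on each diet, ethanol against control in each genotype, and the interaction, each with a threshold of 0.05 on the Benjamini-Hochberg adjusted p. The median SE of a log2 difference was 0.12. The number of arrays limits the precision. The fit was tested on simulated data. The members and gene lists were chosen with earlier results of these data known. Named were members called in any contrast, the brightest 5, the 6 with the smallest p per contrast, the 3 on either side of log2 5.7, the scaRNAs, H/ACA proteins, Terc and hosts; Snora47, the remaining members and the other genes named were added after their values were seen. Hosts were taken by RefSeq span without strand, since the table gives none, where a rule by strand had been planned. Replicate numbers did not pair samples: 2 of 18 same-number pairs had a correlation above 0.1. Alternatives were no filter, another normalisation or offset, other probe set rules, fewer groups, a replicate block and leaving out each array.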

Additional observations from a re-analysis of the deposited data

How the results depend on the processing

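The median difference of the 31 RNAs kept its sign where it was clear of 0, and the counts of calls moved. With no filter on dim genes the calls on the control diet between genotypes numbered 10 against 16, and Snora20 was not called (0 on the ethanol diet). Fitting only the groups compared gave 10 between genotypes on the control diet and 4 with ethanol in wild-type livers, against 16 and 2. A further quantile normalisation gave 0 between genotypes on the ethanol diet, and adding 16 before log2 gave 5 with ethanol in wild-type livers. Counting the snoRNAs alone, in the same fit, gave 1 there, since Scarna6 was then left out. The causes of the other shifts were not tested. By construction, more genes are adjusted for without a filter, and fewer arrays estimate the spread with fewer groups.

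With single arrays left out, calls ran from 7 (without null control array 2) to 18 (without wild-type control array 2) between genotypes on the control diet, from 0 to 18 with ethanol in wild-type livers, from 0 to 0 with ethanol in null livers, from 0 to 1 between genotypes on the ethanol diet and from 0 to 4 in the interaction. Without wild-type control array 2 there were 18 with ethanol in wild-type livers and 4 in the interaction. The medians ran from 0.59 to 1.05, 0.64 to 0.85, -0.12 to 0.13, -0.05 to 0.17 and -0.94 to -0.52 in the same order, and the share below log2 5.7 was 12.9% each time.

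Of 19 single calls, none reversed in any alternative. The deviations of same-numbered arrays correlated at -0.15 to 0.19 over 18 pairs, which cannot settle whether they were paired. With the replicate number as a block in limma 17 of 19 calls held, while Snora15 (adjusted p = 0.0634) and Snora7a (0.0557) did not. The counts were then 14 between genotypes on the control diet and 1 on the ethanol diet. They were 2 with ethanol in wild-type livers, 0 in null livers and 0 in the interaction. The medians were the same as without the block. No detection call was used, so probe sets below log2 5.7 are read as dim and not as absent.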

Other observations

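A further 13 probe sets name a Snora or Scarna gene together with another gene and were not counted among the 31. Wild-type control was the lowest group mean for 9 of them, and for 1 all 3 wild-type control arrays lay below the other 9. Their median difference was 0.31 between null and wild-type livers on the control diet, 0.21 on the ethanol diet, 0.20 with ethanol in wild-type livers and 0.06 with ethanol in null livers. The probe set of Snora81 and Eif4a2 averaged 6.02 in null ethanol, 6.02 in null control, 5.42 in wild-type ethanol and 4.44 in wild-type control livers. That of Scarna13 and Mir3069 differed the other way, by -0.28 between genotypes on the control diet and by -0.65 with ethanol in wild-type livers.

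Second probe sets of genes among the 31 also had their lowest group mean in wild-type control livers. The wild-type control arrays lay below all other arrays for the second probe set of Scarna17, but not for that of Snora33. That of Snora33 averaged 7.49 in null ethanol, 7.73 in null control, 7.29 in wild-type ethanol and 5.93 in wild-type control livers, and that of Scarna17 averaged 9.74, 10.0, 9.93 and 8.86. The second probe set of Snora19 held values identical to those of the first.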
